A study of Mus musculus with 12 samples.

Results

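The chemokines and their receptors were chosen by gene symbol: every probe whose platform symbol began with Ccl, Cxcl, Ccr, Cxcr or Xcr and a digit, or with Cx3c. These were 36 probes for 28 genes of the 8987 named genes on the array, 22 ligands with 28 probes and 6 receptors with 8 probes. All 28 genes passed the filter on detection and were among the 7894 genes tested. The receptors were Ccr6, Ccr7, Cxcr3, Cxcr4, Cxcr5 and Cx3cr1; other chemokine receptors were not analysed here.

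RNA came from tumors that B16 cells, a mouse melanoma line, formed under the skin of C57BL6 mice, whose age the labels do not give. Cells were injected at 25000 per mouse, tumors were harvested at 100 to 400 mm3, and those of 3 mice were pooled and sorted by tdTomato fluorescence into the tumor fraction (positive) and the microenvironment fraction (negative). The line was either F0 or F4; F4 cells are labelled as resistant to earlier checkpoint inhibitor therapy, and F0 cells as having had none. According to the treatment protocol, mice of both lines were given the same 3 injections of checkpoint inhibitors with Fvax, a vaccine of B16 cells that express Flt3 ligand, whereas a label on the F0 samples says no current treatment; this disagreement was not settled. The 4 groups were tumor F0 and microenvironment F0, with 2 pools each (B2 and B3), and tumor F4 and microenvironment F4, with 4 pools each (A to D). Both fractions of a pool came from the same tumors, and the labels name 1 line of each kind, so F4 against F0 compares these lines.

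Chemokines are small secreted proteins that guide the movement of leukocytes along gradients. They bind receptors of the G protein-coupled family, whose signal runs through inhibitory G proteins and Rac to the actin skeleton, and arrestins and receptor kinases end it. In tumors, myeloid cells, T cells, fibroblasts and the tumor cells themselves can all make chemokines, and which leukocytes enter depends in part on the receptors they carry.

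The stretches before the start sites of 4 ligands are shown. Ccl3 and Cxcl2 passed the test as lower in the tumor fraction of F4 tumors. The interferon-induced ligands Cxcl9 and Cxcl10 did not pass, and a difference between the pairs was not tested. Each stretch runs 5′ to 3′ on the gene's strand over the 250 bases before the annotated start, from RefSeq on GRCm38.p6. Capitals mark matches to a kappaB motif (GGGANNNNCC) or an ISRE, an interferon-stimulated response element (GAAANNGAAA), on either strand, and N is any base.
Ccl3 (chr11:83649379-83649628, minus strand): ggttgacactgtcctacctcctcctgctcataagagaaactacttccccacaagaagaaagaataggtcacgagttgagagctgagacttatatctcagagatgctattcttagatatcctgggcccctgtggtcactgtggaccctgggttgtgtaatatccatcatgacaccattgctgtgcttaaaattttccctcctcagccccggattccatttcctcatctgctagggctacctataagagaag
Cxcl2 (chr5:90903649-90903898, plus strand): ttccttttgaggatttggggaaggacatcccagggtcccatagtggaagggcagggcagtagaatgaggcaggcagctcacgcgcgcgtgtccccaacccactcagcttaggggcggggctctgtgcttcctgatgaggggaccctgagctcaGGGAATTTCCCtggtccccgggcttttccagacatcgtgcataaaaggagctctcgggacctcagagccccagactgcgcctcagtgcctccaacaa
Cxcl9 (chr5:92328080-92328329, minus strand): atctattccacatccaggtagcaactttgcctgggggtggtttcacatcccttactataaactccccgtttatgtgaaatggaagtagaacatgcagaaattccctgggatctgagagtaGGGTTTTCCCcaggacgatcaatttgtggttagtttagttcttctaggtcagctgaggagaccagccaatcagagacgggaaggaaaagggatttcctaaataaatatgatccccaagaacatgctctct
Cxcl10 (chr5:92348890-92349139, minus strand): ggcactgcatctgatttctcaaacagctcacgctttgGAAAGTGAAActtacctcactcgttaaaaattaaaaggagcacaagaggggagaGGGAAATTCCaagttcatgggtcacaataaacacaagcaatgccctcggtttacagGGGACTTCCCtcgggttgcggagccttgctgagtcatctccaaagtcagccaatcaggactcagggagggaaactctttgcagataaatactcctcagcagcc
Cxcl2 held 2 overlapping kappaB matches on opposite strands, Cxcl9 held 1, and Cxcl10 held kappaB matches at 2 places (the nearer to the start on both strands) and 1 ISRE match. The printed stretch of Ccl3 held none of these letters. Over 32851 promoters of the same length the kappaB motif was found in 17.6%, the ISRE in 2.98% and a GAS motif (TTCNNNGAA) in 7.02%. Among 24 promoters listed for 20 of the members, the counts were 9, 2 and 1. The matches describe letters only, and binding was not tested.

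Signal was summarised on the log2 scale after background correction and quantile normalization, and a level is read only within a gene, never between genes. Mean unnormalized signal was 468 to 519 on the tumor arrays except tumor F4 A, at 250.5, and 156 to 259 on the microenvironment arrays. Of 22 leukocyte markers 10 were measured. Their mean log2 signal was 5.83 to 7.03 in tumor F0, 5.83 to 9.91 in tumor F4, 9.91 to 10.97 in microenvironment F0 and 10.65 to 11.24 in microenvironment F4, and 8 of the 10 were lower in the tumor fraction of F4 tumors by limma at an adjusted p below 0.05. The value of 9.91 in tumor F4 belonged to pool A, and the 3 other pools reached 7.47 at most. That array also had the highest skeletal muscle marker mean of all arrays, 8.79 over 4 of 6 markers. The B cell marker Cd79a was detected on no tumor array. The melanocyte mean, over 9 of 11 markers, was 9.35 to 10.52 in tumor arrays and 7.67 to 10.17 in microenvironment arrays, and Mlana, Pmel, Tyrp1 and Dct were detected on all 12. Microenvironment arrays F0 B3 (10.01) and F4 D (10.17) had the highest melanocyte means of their groups. In RNA from sorted pools, fewer cells of a type and less RNA per cell cannot be told apart.

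The first comparison asks which members differed between the fractions of F4 tumors. Chemokines and receptors were lower in the tumor fraction: 8 of 28 passed the test as lower and 0 as higher, 4 ligands (Ccl3, Ccl4, Ccl5, Cxcl2) and 4 receptors (Ccr7, Cxcr3, Cxcr4, Cxcr5). Of all genes tested, 11.2% were lower and 13.3% higher. Of the 28 members 26 had a difference below 0 and 2 above it (59.8% of all genes), and 13 had an unadjusted p below 0.05 in limma (45.9% of all genes). In the fit with the pool as a block 11 were lower and 0 higher (14.4% of all genes were lower and 18.8% higher); the 3 added were Ccl11, Cxcl12 and Cxcl13. In the main analysis the median log2 difference was -1.45 for members, -1.38 for ligands and -1.74 for receptors, against 0.20 for all genes. Each fraction was hybridised on a chip of its own, and effects of chip and of fraction cannot be told apart. The leukocyte marker means above moved with this difference, and their part in it was not tested.

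**Figure D1:**
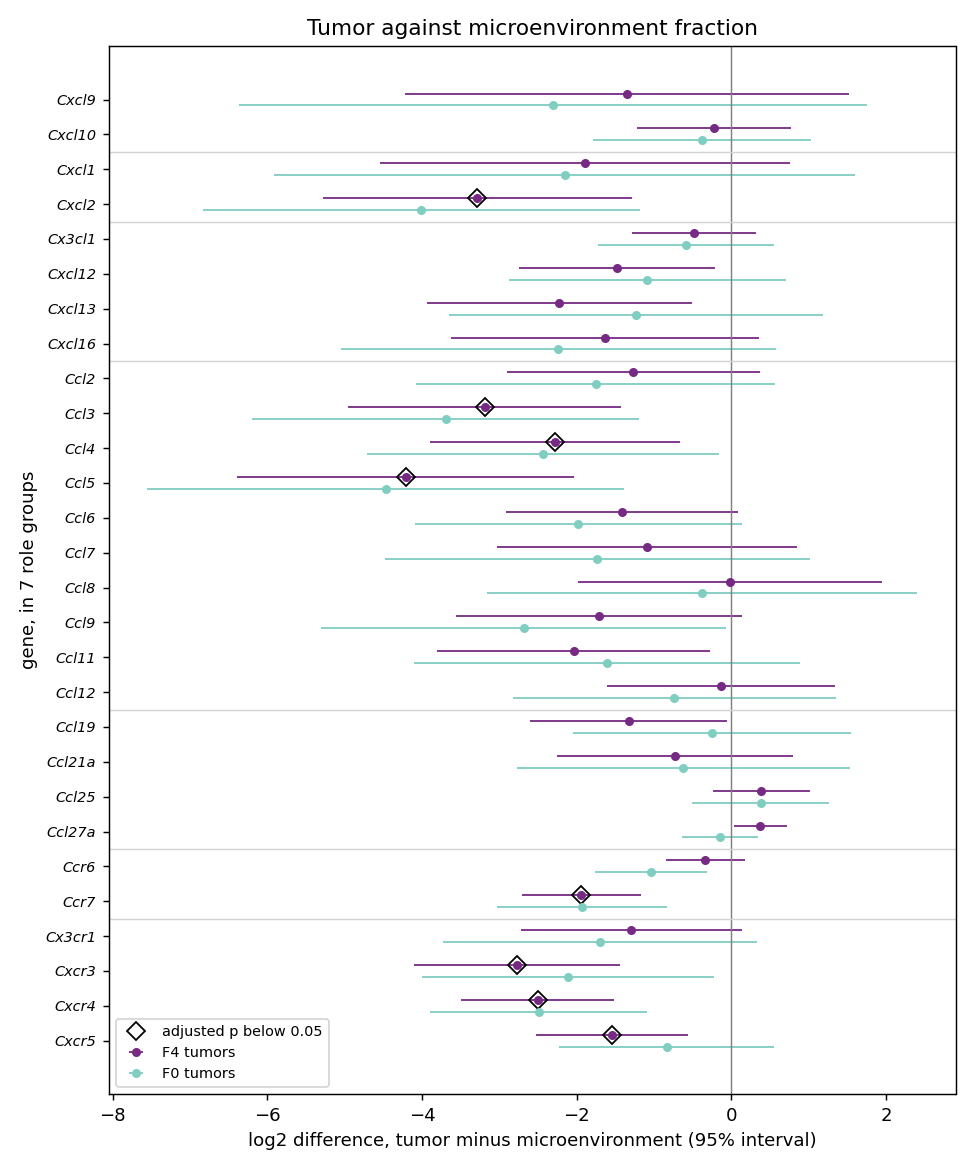
Log2 difference, tumor minus microenvironment fraction, with its 95% interval for each of the 28 genes (rows, in 7 role groups) in F4 tumors (purple) and F0 tumors (green). Open diamonds mark an adjusted p below 0.05 in limma: 8 genes in F4, all below 0, and none in F0.

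The 3 smallest p values of the members belonged to receptors. Cxcr4 is the receptor of Cxcl12 and is carried by most leukocytes. Its log2 signal was 6.35, 5.21, 5.05 and 4.59 in the tumor fractions of F4 pools A to D and 7.98, 7.79, 8.18 and 7.28 in their microenvironment fractions. In F0 pools B2 and B3 it was 5.26 and 4.22 in the tumor and 8.10 and 6.37 in the microenvironment fraction. All tumor arrays lay below all microenvironment arrays in each line, although tumor F4 A (6.35) lay close to microenvironment F0 B3 (6.37). The log2 difference in F4 was -2.51 (SE 0.45), 5.69-fold lower in the tumor fraction (limma, adjusted p = 0.0131). Cxcr4 was detected on only 2 of 4 tumor F4 arrays and 1 of 2 tumor F0 arrays.

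Ccr7 brings naive T cells and mature dendritic cells to lymph nodes. It read 5.94, 4.98, 4.52 and 4.65 in the tumor and 6.34, 7.01, 7.75 and 6.74 in the microenvironment fractions of F4 pools A to D, and 4.92 and 4.99 against 7.04 and 6.74 in F0 pools B2 and B3. The fractions did not overlap, and detection in tumor was limited to 1 array, F4 A. The F4 difference was -1.94 (SE 0.35), 3.84-fold lower in the tumor fraction (limma, adjusted p = 0.0132).

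Cxcr3, the receptor of Cxcl9 and Cxcl10 on activated T cells and natural killer cells, read 8.17, 6.43, 6.11 and 5.94 in the tumor and 10.51, 9.23, 9.36 and 8.63 in the microenvironment fractions of F4. The F0 values were 6.05 and 6.05 against 9.35 and 6.97. Tumor F4 A stood above the other tumor arrays by more than they spread among themselves, yet below every F4 microenvironment array. The difference in F4 was -2.77 (SE 0.61), 6.83-fold lower (limma, adjusted p = 0.0186).

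Cxcr5 guides B cells and follicular helper T cells toward Cxcl13. Values were 5.40, 4.43, 4.43 and 4.31 in the tumor and 7.55, 5.69, 6.14 and 5.37 in the microenvironment fractions of F4, and 4.41 and 4.62 against 5.84 and 4.86 in F0. It was not detected on any tumor array and was detected on 2 microenvironment arrays, both of F4, so the fold is a bound: at least 1.94-fold lower in the tumor fraction of F4 (limma, log2 difference -1.54, SE 0.45, adjusted p = 0.0347). Tumor F4 A (5.40) just overlapped microenvironment F4 D (5.37). A dimmer probe of the gene gave -1.06.

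The other 2 receptors did not pass the test. Cx3cr1, the fractalkine receptor of monocytes and some cytotoxic lymphocytes, differed by -1.30 (SE 0.65, limma, adjusted p = 0.139). In tumor F4 it was 7.75 in pool A and 4.53 to 5.20 in the others, and its microenvironment values were 5.74 to 7.78. Ccr6, which is carried by Th17 cells, B cells and some dendritic cells, differed by -0.34 (SE 0.23, limma, adjusted p = 0.264) and was detected on 3 arrays in all. A second probe of Ccr6 gave -1.07.

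**Figure D2:**
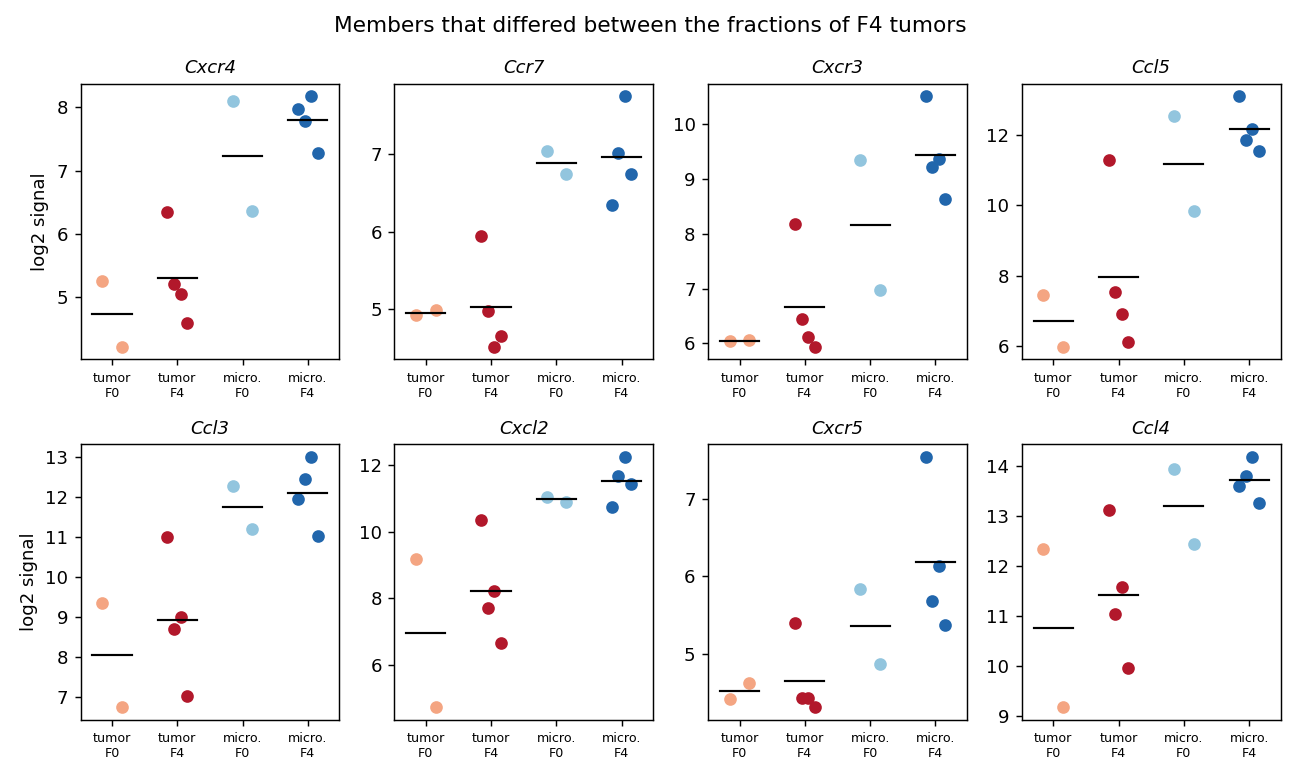
Log2 signal (vertical axis, its range set for each gene) of the 8 genes that passed the test between the fractions of F4 tumors, one panel per gene. Points are arrays of the 4 groups, bars are group means, and the highest F4 tumor point is pool A in every panel.

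Among the inflammatory CC ligands 3 of 10 were lower in the tumor fraction and none was higher, with a median log2 difference of -1.56. Ccl5 (RANTES), which T cells, natural killer cells and macrophages make, had the largest difference of all members. It read 11.27, 7.52, 6.90 and 6.11 in the tumor and 13.10, 11.86, 12.16 and 11.54 in the microenvironment fractions of F4 pools A to D. In F0 it read 7.43 and 5.98 against 12.53 and 9.83. Pool A had the highest tumor value by far, and it still lay below all 4 microenvironment arrays of F4. The difference in F4 was -4.21 (SE 0.99), 18.5-fold lower (limma, adjusted p = 0.0208).

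Ccl3 (MIP-1 alpha), a chemokine made by activated myeloid cells and lymphocytes, read 10.99, 8.69, 8.98 and 7.01 in the tumor and 11.96, 12.44, 13.01 and 11.02 in the microenvironment fractions of F4. The F0 values were 9.35 and 6.73 against 12.28 and 11.20. The F4 fractions were separated by the narrow gap between tumor A and microenvironment D. The difference was -3.19 (SE 0.80), 9.12-fold lower (limma, adjusted p = 0.0247).

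Ccl4 (MIP-1 beta), a neighbour of Ccl3 on the chromosome, read 13.11, 11.03, 11.59 and 9.97 in the tumor and 13.59, 13.80, 14.17 and 13.25 in the microenvironment fractions of F4. In F0 it read 12.34 and 9.17 against 13.94 and 12.44. As for Ccl3, tumor A came within a small gap of microenvironment D without overlapping it. The difference was -2.28 (SE 0.73), 4.86-fold lower (limma, adjusted p = 0.0449), and a second probe gave -2.73.

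The 7 other inflammatory CC ligands did not pass. Ccl2 (MCP-1), which draws monocytes through Ccr2, read 7.86, 6.58, 7.05 and 4.80 in the tumor and 5.88, 8.27, 9.47 and 7.74 in the microenvironment fractions of F4. F0 gave 5.99 and 5.24 against 7.65 and 7.09. The F4 fractions overlapped, because pool A was high in tumor and low in microenvironment, and the difference was -1.27 (SE 0.75, limma, adjusted p = 0.197).

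Ccl9, a myeloid ligand of Ccr1, differed by -1.71 (SE 0.84, limma, adjusted p = 0.132). Ccl6, a related Ccr1 ligand of rodents, differed by -1.42 (SE 0.68, limma, adjusted p = 0.125). The eosinophil chemokine Ccl11 (eotaxin) differed by -2.04 (SE 0.80, limma, adjusted p = 0.0751) and passed with the pool as a block (adjusted p = 0.0227). The monocyte chemokine Ccl7 differed by -1.09 (SE 0.89, limma, adjusted p = 0.340). For Ccl8 and Ccl12 the differences were -0.02 (95% interval -1.99 to 1.94) and -0.13 (95% interval -1.61 to 1.34), and a second Ccl12 probe gave 0.18.

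By position, the CC ligands on chromosome 11 formed 2 runs of adjacent protein-coding genes in RefSeq. In the run Ccl5, Ccl9, Ccl6, Ccl3 and Ccl4, 3 of 5 genes passed and the log2 differences lay between -4.21 and -1.42. In the run Ccl2, Ccl7, Ccl11, Ccl12 and Ccl8, 0 of 5 passed and they lay between -2.04 and -0.02. The difference between the runs was not tested.

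The ELR CXC ligands act on neutrophils through Cxcr2. Cxcl2 (MIP-2), whose promoter letters are shown above, read 10.35, 7.70, 8.21 and 6.67 in the tumor and 10.74, 11.66, 12.24 and 11.43 in the microenvironment fractions of F4. In F0 it read 9.18 and 4.74 against 11.05 and 10.89. All tumor arrays were below all microenvironment arrays in each line. The difference in F4 was -3.29 (SE 0.91), 9.76-fold lower (limma, adjusted p = 0.0311).

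Its chromosome 5 neighbour Cxcl1 (KC) did not pass. Cxcl1 read 10.02, 9.08, 10.02 and 7.64 in the tumor and 8.77, 11.11, 12.99 and 11.45 in the microenvironment fractions of F4, and 10.90 and 5.64 against 12.12 and 8.73 in F0. The fractions overlapped in both lines. The F4 difference was -1.89 (SE 1.21, limma, adjusted p = 0.230).

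Neither interferon-induced ligand of Cxcr3 passed. Cxcl9 read 10.96, 9.61, 9.12 and 6.53 in the tumor and 8.75, 11.80, 11.60 and 9.48 in the microenvironment fractions of F4, and 10.54 and 4.87 against 11.56 and 8.48 in F0. It ranged widely within every group, and its F4 difference was -1.35 (95% interval -4.22 to 1.52, limma, adjusted p = 0.424). Cxcl10 read 9.42, 9.59, 9.70 and 9.72 in the tumor and 8.45, 10.33, 10.44 and 10.12 in the microenvironment fractions of F4, and 10.48 and 9.07 against 10.67 and 9.65 in F0. Its tumor F4 values lay within a narrow band, microenvironment F4 A was the lowest of all 12 arrays, and the difference was -0.23 (95% interval -1.23 to 0.77, limma, adjusted p = 0.707).

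Of the 4 other CXC and CX3C ligands none passed. Cxcl12 (SDF-1), made by fibroblasts and other stromal cells and bound by Cxcr4, read 5.44, 5.95, 6.13 and 4.73 in the tumor and 6.03, 7.41, 8.69 and 6.01 in the microenvironment fractions of F4, and 5.65 and 4.87 against 6.91 and 5.80 in F0. The tumor value was the lower one in each of the 6 pools, but the F4 groups overlapped. The difference was -1.48 (SE 0.58, limma, adjusted p = 0.0738; with the pool as a block 0.0160), and its 2 other probes gave -0.72 and -1.66. The fibroblast marker mean, over 5 of 8 markers, was 5.26 to 7.33 in tumor F4 and 6.20 to 10.09 in microenvironment F4, highest in the array where Cxcl12 was highest, pool C; its part was not tested. Cxcl13, the ligand of Cxcr5, differed by -2.22 (SE 0.78, limma, adjusted p = 0.0555, with the block 0.0289). Cxcl16, which exists in a membrane-bound and a soluble form, differed by -1.64 (SE 0.91, limma, adjusted p = 0.172). Cx3cl1 (fractalkine), a membrane-bound ligand, was detected on 2 arrays and differed by -0.48 (SE 0.36, limma, adjusted p = 0.307).

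None of the 4 homeostatic CC ligands passed, and they lay on both sides of 0, with a median log2 difference of -0.18. Ccl19, a ligand of Ccr7, read 4.97, 4.64, 5.07 and 4.93 in the tumor and 5.17, 6.33, 8.34 and 5.09 in the microenvironment fractions of F4, and 4.96 and 4.61 against 5.16 and 4.92 in F0. It was detected only in microenvironment F4, on 2 of 4 arrays, pools B and C, which makes the bound at least 2.01-fold lower in tumor F4 (limma, adjusted p = 0.0971). Ccl21a, the other Ccr7 ligand, read 6.69, 5.45, 4.43 and 4.49 in the tumor and 4.83, 7.49, 4.56 and 7.10 in the microenvironment fractions of F4, and 4.54 and 4.43 against 5.34 and 4.88 in F0. High and low arrays occurred in both F4 groups, and the difference was -0.73 (SE 0.69, limma, adjusted p = 0.415). Ccl21a has near-identical copies in the mouse genome, and this probe may not separate them.

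Only Ccl25 and Ccl27a lay above 0. Ccl27a, a skin chemokine that also has close copies, read 6.84, 6.70, 6.72 and 6.77 in the tumor and 6.56, 6.32, 6.17 and 6.47 in the microenvironment fractions of F4. The F0 values were 6.32 and 6.37 against 6.52 and 6.46. In F4 every tumor array was above every microenvironment array, by a difference of 0.37 (SE 0.16, limma, adjusted p = 0.0908). Ccl25, known from thymus and gut, differed by 0.39 (SE 0.28, limma, adjusted p = 0.292). A second Ccl25 probe, detected on 6 arrays, gave 1.03. A second Ccl27a probe, detected on 3 arrays, gave 0.43 in F4, and 0.40 in F0 where the one used gave -0.15.

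Counting arrays rather than testing, 8 of 28 members had every tumor F4 array below every microenvironment F4 array (8.96% of all genes), namely Ccl3, Ccl4, Ccl5, Ccl19, Cxcl2, Ccr7, Cxcr3 and Cxcr4. For Ccl19 the order rested on 5.07 in tumor F4 C against 5.09 in microenvironment F4 D, neither of them detected. Ccl27a alone had the reverse order (14.1% of all genes). The scaling of the arrays bore on this comparison. With each array scaled to its median instead of quantile-normalized, the median of all genes moved to 1.22 and that of members to -0.50. Then 8 of 28 members passed, 6 as lower and 2 as higher. The calls over all genes rose from 24.6% to 72.8%, with 399 of 7894 genes called lower and 5351 higher. Cxcl2 (adjusted p = 0.0649) and Ccl4 (adjusted p = 0.0920) no longer passed in limma, and 2 members passed as higher, Ccl27a at 1.37 (adjusted p = 0.00450) and Ccl25 at 1.15 (adjusted p = 0.00617). Under that scaling 5 members turned from below 0 to above it: Cxcl9 (0.04), Ccl7 (0.18), Cxcl10 (1.18), Ccl12 (1.19) and Ccl8 (1.31). The share of higher among all called genes moved from 54.3% to 93.1%.

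The count of members called also rested on single arrays. It was 0 without tumor F4 B, C or D, 13 without tumor F4 A (37.8% of all genes called), 3, 4 and 2 without microenvironment F4 A, B and C (10.4%, 6.99% and 2.95% of all genes), and 12 without microenvironment F4 D (41.4% of all genes). In the runs that called members, each of them was lower, whereas 37.8% to 59.9% of all genes called were higher. The median of the members was -0.92 without tumor F4 D. Another run, chosen after seeing the data, left out the 3 arrays that stood apart in marker means. These were tumor F4 A, microenvironment F0 B3 and microenvironment F4 D. The first had the highest leukocyte mean of the tumor arrays, and the others the highest melanocyte means of their groups. The choice thus favoured a wider gap between the fractions. The median of that run was -2.14 for members and 0.26 for all genes, with Ccl5 at -5.53, Cxcr3 at -3.54 and Cx3cr1 at -2.40. Only sizes are given, as it left microenvironment F0 B2 alone in its group. Over all genes the calls fell from 1939 to 86, 85 and 91 without tumor F4 B, C and D. For Cxcr4, the lowest p of the members, the difference without one array stayed between -2.86 and -2.27, and its adjusted p in limma was 0.0515, 0.0532 and 0.0519 without tumor F4 B, C and D.

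**Figure D3:**
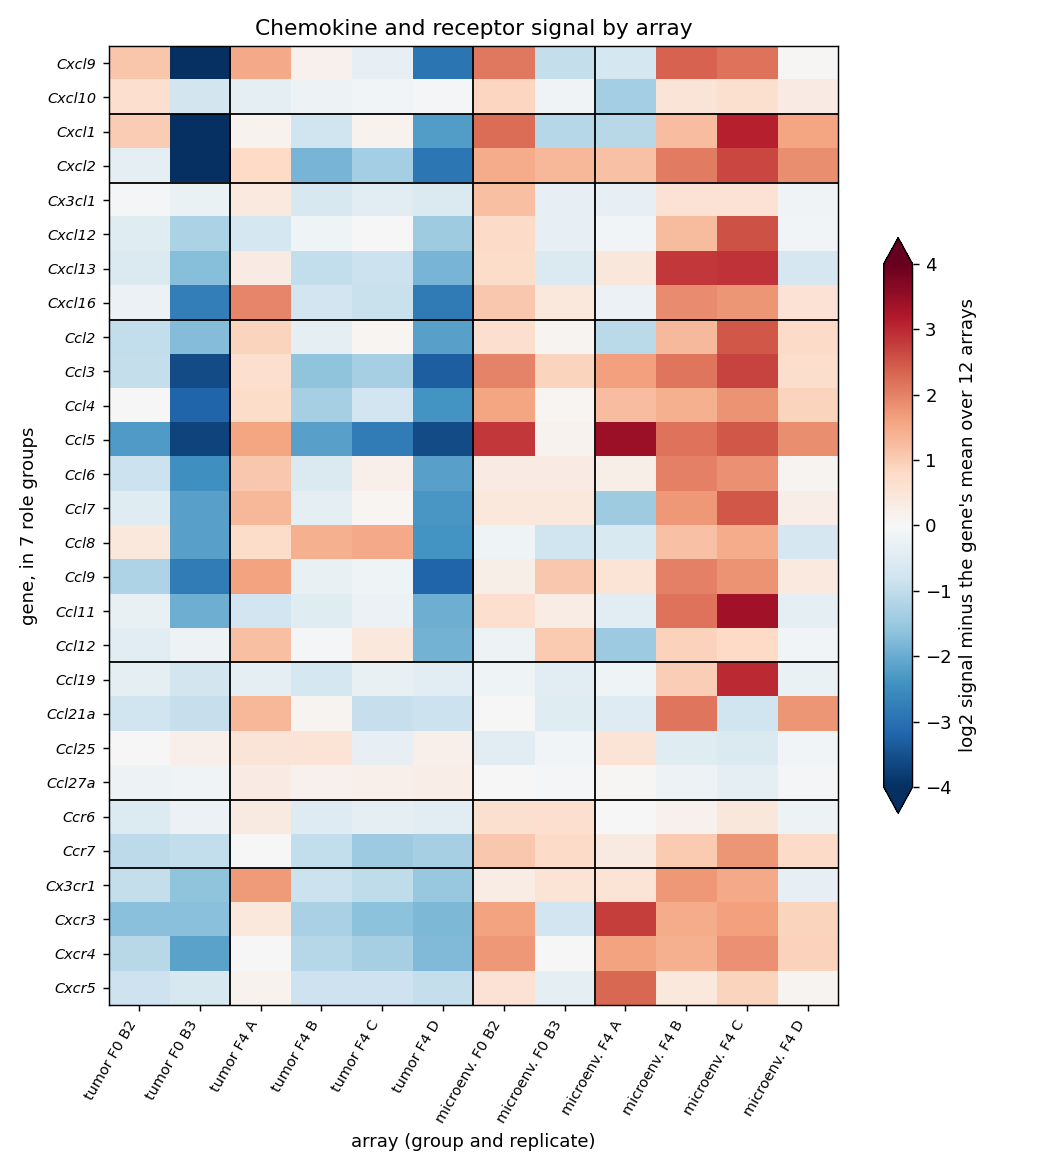
Log2 signal of the 28 genes (rows, in 7 role groups) on the 12 arrays (columns), each gene shown as the difference from its own mean over all arrays, with differences beyond 4 in the end colours. The tumor F4 A column is red for most genes, unlike the other tumor F4 columns, and tumor F0 B3 and tumor F4 D are the bluest.

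Pools differed in how the fractions compared. In pool F4 A, 15 of 28 members were higher in the tumor than in the microenvironment fraction, with a median log2 difference of 0.32, beside 52.4% of all genes higher there, whereas 2 or 3 were higher in each of the other 5 pools, whose medians lay between -2.51 and -1.25. For all genes the median ran from 0.05 in pool F4 A to 0.29 in pool F4 C, and 57.1% to 62.2% were higher in tumor in the other 5 pools. The 6 highest in pool A were Ccl7 (2.74), Ccl12 (2.66), Cxcl9 (2.21), Cxcl16 (2.18), Ccl2 (1.97) and Ccl21a (1.86). Ccl3, Ccl4, Ccl5, Cxcl2, Ccr7, Cxcr3, Cxcr4 and Cxcr5 were lower in tumor in pool A as well. In that pool the leukocyte marker mean was 9.91 in the tumor and 11.05 in the microenvironment fraction, a gap smaller than in any other F4 pool, and its part in these values was not tested. In all 4 F4 pools the tumor value was the lower one for 12 members (19.7% of all genes).

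**Figure D4:**
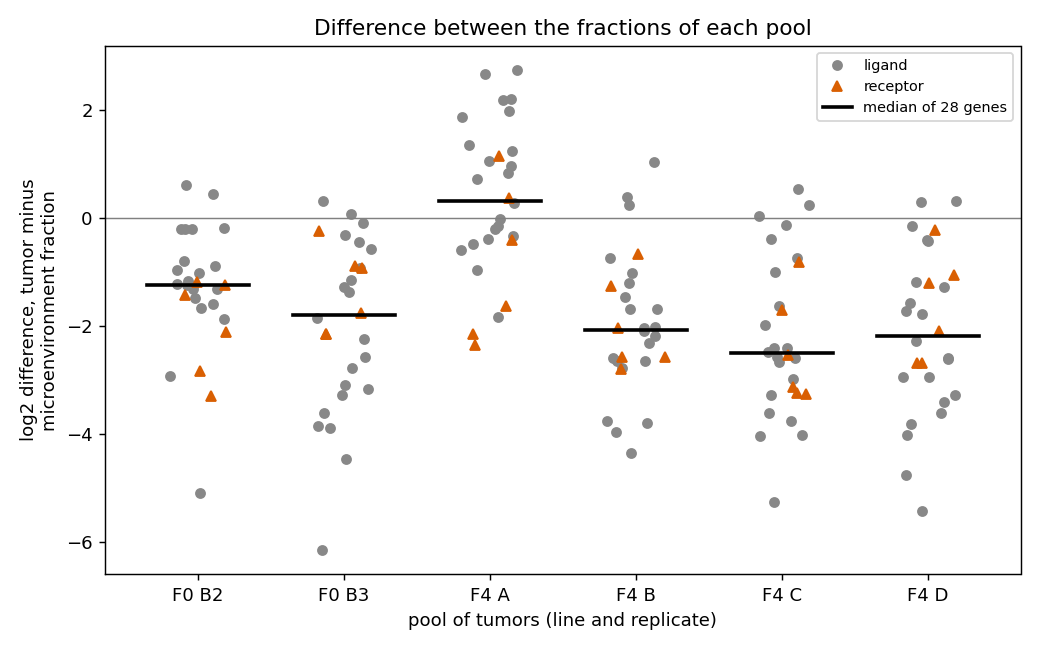
Log2 difference, tumor minus microenvironment fraction (vertical axis), of each of the 28 genes in each of the 6 pools (horizontal axis). Circles are ligands, triangles receptors, and bars the median, which is 0.32 in pool F4 A and between -2.51 and -1.25 in the others.

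In F0 tumors the same question was asked with 2 pools. None of the 28 members passed the test (0.646% of all genes were lower and 0.266% higher), while 9 had an unadjusted p below 0.05 in limma (24.6% of all genes). Differences were below 0 for 27 of 28 and above it for Ccl25 (60.2% of all genes), with a median of -1.72 against 0.19 for all genes, and 21 members had both tumor arrays below both microenvironment arrays (23.6% of all genes), Ccl25 alone had the reverse order (38.5% of all genes), and 25 members were lower in the tumor fraction of each pool (29.3% of all genes). The smallest p values were those of Cxcr4, with a log2 difference of -2.49 (SE 0.64, limma, adjusted p = 0.0736), and Ccr7, at least 3.30-fold lower in tumor (limma, adjusted p = 0.0736). Ccl3 (-3.70, adjusted p = 0.104), Ccl5 (-4.47, adjusted p = 0.107), Ccr6 (at least 1.61-fold lower, detected on no tumor F0 array, adjusted p = 0.109) and Cxcl2 (-4.01, adjusted p = 0.111) followed in limma. With the pool as a block, 3 members passed (4.73% of all genes were lower and 1.65% higher): Cxcr4 (adjusted p = 0.0242), Ccl5 (0.0282) and Ccl3 (0.0350). Under median scaling 3 passed as well, Ccl5 as lower and Ccl25 and Ccl27a as higher, while 70.6% of all genes were called and their median moved to 1.68. Without tumor F4 A, which enters this comparison through the shared estimate of the spread, 5 passed (Cxcr4, Ccr7, Ccl5, Ccl3 and Ccr6, with 7.61% of all genes called). Without microenvironment F0 B3, which left B2 alone in its group, the median of the members was -1.84. Without tumor F0 B3 the median of the members was -0.87, with 5 of 28 above 0.

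The next comparison asks whether the tumor fractions of the F4 and F0 lines differed. None of 28 members passed the test in either direction (0.0127% of all genes were higher and 0.076% lower in F4), and none had an unadjusted p below 0.05 in limma (2.09% of all genes). The differences were above 0 for 26 of 28 members (46.8% of all genes), with a median of 0.64 against -0.02 for all genes. That excess depended on 2 arrays: without tumor F0 B3 it was 15 of 28 with a median of 0.07, and without tumor F4 A 21 of 28 with a median of 0.17. The leukocyte marker means of these 2 arrays, 5.83 and 9.91, were the lowest and the highest among the tumor arrays, and their part in the excess was not tested.

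The 4 members with the smallest p in this comparison were Ccl27a, Ccl6, Ccl9 and Cxcl2. Ccl27a was higher on every F4 tumor array than on both F0 tumor arrays (5.43% of all genes), and no member had the reverse order (8.3% of all genes). It differed, at the values given above, by 0.41 (95% interval -0.02 to 0.84, unadjusted p = 0.0582). Ccl6 read 8.50, 6.84, 7.62 and 5.27 in tumor F4 and 6.57 and 4.96 in tumor F0, and in the microenvironment 7.66, 9.43, 9.26 and 7.54 in F4 and 7.74 and 7.75 in F0. The tumor groups overlapped, with a difference of 1.29 (95% interval -0.54 to 3.12). Ccl9 read 11.59, 9.68, 9.79 and 6.77 in tumor F4 and 8.73 and 7.18 in tumor F0, and in the microenvironment 10.52, 11.99, 11.77 and 10.37 in F4 and 10.22 and 11.06 in F0. Tumor F4 D lay below both F0 arrays, so these groups overlapped too, with a difference of 1.50 (95% interval -0.77 to 3.77). For Cxcl2 the difference was 1.28 (95% interval -1.17 to 3.72). The median width of the interval to each side was 1.85 for members and 0.76 for all genes, and every member's interval contained 0. The smallest difference that these arrays could detect was not computed.

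In the microenvironment fraction none of 28 members passed between F4 and F0 either (0% of all genes were higher and 0% lower), and none had an unadjusted p below 0.05 in limma (2.44% of all genes). The median difference was 0.52 against -0.03 for all genes, and 23 of 28 were above 0 (46.1% of all genes). Without microenvironment F0 B3 these were 0.16 and 16 of 28, and without microenvironment F4 C 0.18 and 18 of 28. Ccr6 had the smallest p: it read 5.19, 5.37, 5.66 and 4.98 in microenvironment F4 and 5.84 and 5.88 in microenvironment F0, and in tumor 5.55, 4.70, 4.84 and 4.76 in F4 and 4.66 and 4.98 in F0. Both F0 microenvironment arrays were above all 4 of F4 (2.9% of all genes), no member had the reverse order (2.37% of all genes), and the difference was -0.56 (95% interval -1.19 to 0.07, unadjusted p = 0.0777), although Ccr6 was detected on 1 array of each of these groups. Cxcr3, at the values above, differed by 1.27 (95% interval -0.36 to 2.90), with F0 B2 inside the F4 range and F0 B3 below it. Ccl19 was at least 1.09-fold higher and Cxcr5 at least 1.05-fold higher in F4, neither detected in F0 (adjusted p = 0.999 in limma for both).

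**Figure D5:**
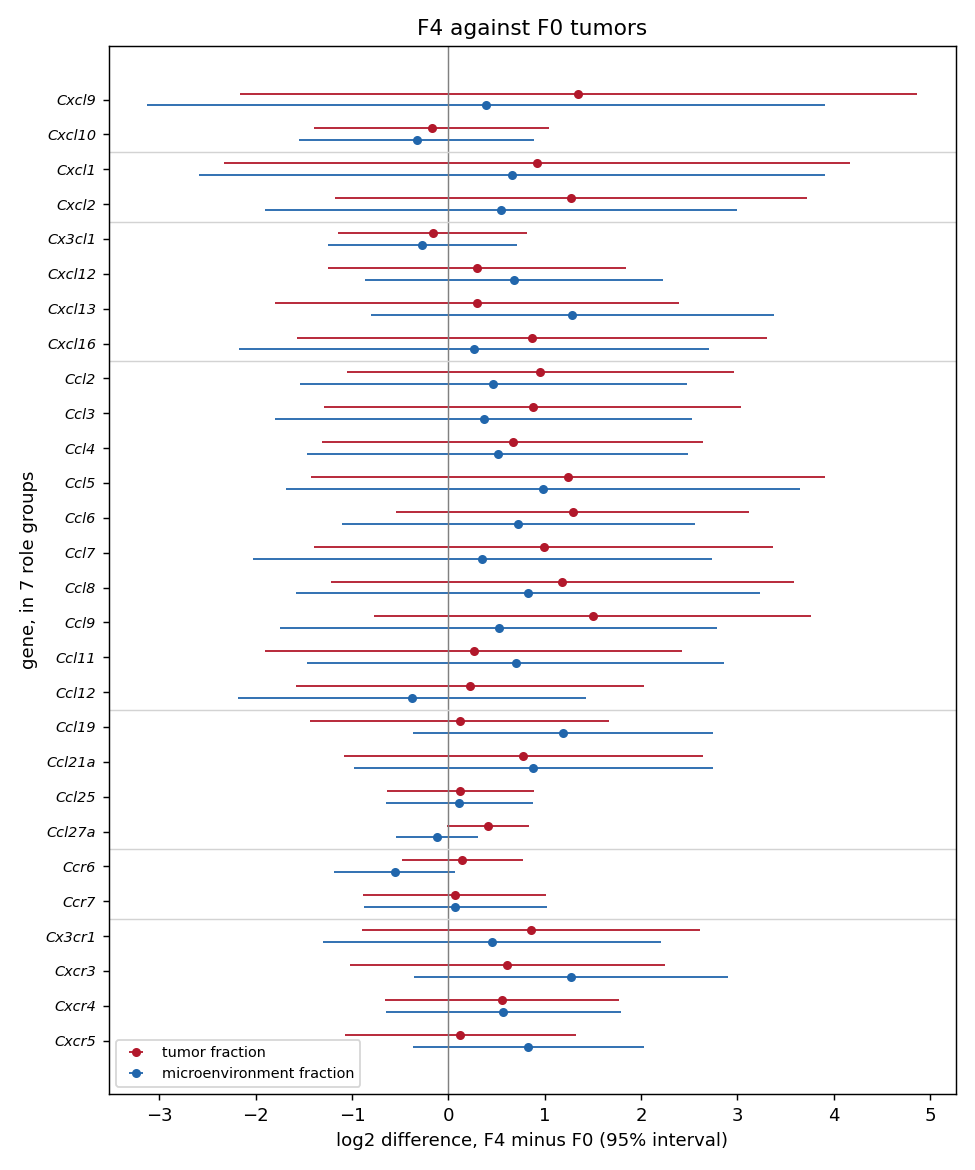
Log2 difference, F4 minus F0, with its 95% interval for each of the 28 genes (rows, in 7 role groups) in the tumor fraction (red) and the microenvironment fraction (blue). Every interval crosses 0 in both fractions; 26 tumor and 23 microenvironment differences lie above 0.

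Whether the difference between the lines itself depended on the fraction was tested as an interaction. None of 28 members passed (0% of all genes in either direction), 19 were above 0 (52.4% of all genes), and none had an unadjusted p below 0.05 in limma (1.23% of all genes). The 4 smallest p values were those of Ccl27a, with a difference of 0.52 (95% interval -0.08 to 1.13), Ccr6, with 0.70 (95% interval -0.19 to 1.59), and Ccl19 and Cxcr5, which were detected in microenvironment F4 alone, so that no size is given for them. The count above 0 did not hold its side: it was 11 under median scaling, 8 with array weights, 8 without tumor F0 B3, 11 without tumor F4 A and 12 without microenvironment F0 B2. A second Ccl27a probe, detected on 3 arrays, gave 0.31 between the lines in the microenvironment where the one used gave -0.11. The median half-width of the interval was 2.61 for members.

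Other genes of the pathway were read from 3 lists. Of 22 measured genes that carry or end the signal of chemokine receptors, 12 were lower in the tumor fraction of F4 tumors and 0 higher, with a median log2 difference of -1.64, where 11.2% of all genes were lower and 13.3% higher with a median of 0.20. Among them Rac2, the leukocyte form of Rac, differed by -3.52, 11.4-fold (limma, adjusted p = 0.0209), Elmo1, a partner of Dock proteins in Rac activation, by -2.99 (adjusted p = 0.0203), and Pik3cg, the PI3 kinase subunit that G proteins activate, by -2.02 (adjusted p = 0.0206). The regulators that end the signal included Arrb2, an arrestin, at -2.20 (limma, adjusted p = 0.0309), and Rgs1, which speeds G protein inactivation, at -2.51 (limma, adjusted p = 0.0432). Of 7 measured genes that process chemokines or their receptors 3 were lower: Dpp4, a peptidase that trims chemokines, at -3.06 or 8.34-fold (limma, adjusted p = 0.0140), the metalloproteinase Mmp9 at -2.01 and Tpst2, which sulfates receptor tyrosines, at -1.53. Of 5 measured relatives outside the symbol rule 1 was lower, Xcl1, a chemokine of T and natural killer cells, at -3.92 or 15.2-fold (limma, adjusted p = 0.0249). None of the 34 genes in these lists passed in the other 4 comparisons. As for the members, the leukocyte marker means moved with these differences and their part was not tested.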

How the data were processed

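Per the file headers, the deposited table held a linear, unnormalized intensity for each of 25697 probes on 12 single-colour Illumina arrays, with a detection p-value per probe and array that the authors' software (GenomeStudio, per the submitters' processing notes, its version not given in the sources used here) computed. A second deposited table of 12824 probes held intensity values processed in a way not given in the sources used here, and served as an alternative.

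In R 4.3.3, limma 3.58.1 corrected the background (neqc, normexp from the detection p-values, offset 16) and quantile-normalized all arrays on the log2 scale. The 11224 probes kept had detection p values below 0.01 on 2 or more arrays. Symbols, known here for 12096 probes, came from the platform annotation. Of these 12090 were matched by Entrez identifier to RefSeq (GRCm38.p6), whose symbol was used. The brightest kept probe by mean over all arrays stood for a gene. Group means were fitted to all 12 arrays (8 residual and 3.27 prior degrees of freedom) with empirical Bayes moderation and Benjamini-Hochberg adjustment over 7894 genes, threshold 0.05. Every p and adjusted p comes from limma. A gene detected on no array of its dimmer group has its fold given as "at least": the brighter mean is set against its own signal or the array's lowest detected signal, whichever is higher.

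Replicates are separate pools of tumors from 3 mice, so p-values measure the spread between pools, and the number of arrays limits the precision. Both fractions of a pool share its tumors, per the labels, which pairs them: the pool is a block in a second fit. Deviations from the group means correlated between the fractions of a pool at 0.39 in F0 and at 0.11, 0.11, -0.07 and 0.56 in F4 pools A to D. On each chip the F0 arrays took the first positions, so effects of position and of line cannot be told apart.

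The members, role groups, marker lists and pathway lists were chosen with earlier results of these data known. Values per array are given for members that passed any of 5 comparisons, the 4 with the smallest p between the lines in each fraction and in the interaction, and a set list of well-known members. The alternatives tried were median scaling, no background correction, an offset of 50, no filter or detection on at least 4 arrays, array weights, the mean over probes, the deposited processed table, fits within a fraction or line, quantile normalization within each fraction, the pool as a block, and leaving out each array. The fit of group means was also run on simulated log2 values with known changes. These were drawn independently for each gene and array, so normalization and the pairing of fractions were not tested by it. Protein sequences were not used here.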

Additional observations from a re-analysis of the deposited data

Results flagged for a closer look

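In groups of 4 arrays, the gap between an extreme array and its neighbour was set against the group's whole range for each of the 28 members in both F4 groups. This examined 56 groups, of which chance flags about 1 in 20, and 3 were flagged, near that share. Cxcr5 in tumor F4 was 5.40 in pool A and 4.31 to 4.43 in the other pools, a gap of 0.886 of the range, but it was detected on none of these arrays. Ccr6 in tumor F4 was 5.55 in pool A and 4.70 to 4.84 in the others, a gap of 0.835 of the range, and was detected on 1 of these 4 arrays. Cxcl10 in microenvironment F4 was 8.45 in pool A and 10.12 to 10.44 in the others, a gap of 0.839 of the range. All 3 values belonged to pool A, in the tumor fraction for the receptors and in the microenvironment fraction for Cxcl10.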

How the results depend on the processing

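The counts below are of members called by limma at an adjusted p below 0.05. Between F4 and F0, in either fraction and in the interaction, 0 members passed in the main analysis, in every alternative run and without any one array. Between the fractions of F4 tumors the main count was 8. It was 24 with array weights, 0 to 13 when one array was left out, and 11 with the pool as a replicate block, while the share of all genes called was 24.6% in the main analysis, 74.7% with array weights and 33.1% with the block. All members called in these F4 runs were lower, except Ccl27a under array weights. Among all genes called, 54.3% were higher in the main analysis, 62.2% with array weights and 56.7% with the block. For F0 tumors the main count was 0 (0.912% of all genes called). Under median scaling it was 3 (70.6% of all genes), with Ccl5 lower and Ccl25 and Ccl27a higher. It was 3 with the replicate block (6.37%), and 0 to 5 when 1 F4 array was left out (0.355% to 7.61%). One alternative was chosen after seeing the data: without the 3 arrays that stood apart in their marker means (tumor F4 A, microenvironment F0 B3 and microenvironment F4 D), 17 members passed in F4 (56.8% of all genes) and 7 in F0 (33.2% of all genes). None of the 8 members called in the main analysis changed sign under any alternative run; members called only in an alternative could, as Ccl27a in F0 (-0.15, and 1.27 under median scaling). The smaller counts without single F4 arrays came with 1 array fewer in the group, and otherwise the cause was not tested. Cxcr4 and Ccr7 passed in F4 in 20 of 23 alternatives, Cxcr3 in 19, Ccl5 in 18, Ccl3 in 17, Cxcl2 in 16, Ccl4 in 15 and Cxcr5 in 14 of 22. Precision is limited by the 2 arrays of each F0 group, and by signal near background for Ccl19, Cxcr5, Ccr6 and Cx3cl1, each detected on 2 or 3 of 12 arrays.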
